A study of Mus musculus with 2 samples.

Results

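The 7 microRNA genes described here are Mir206 and Mir133b on chromosome 1, Mir1a-1 and Mir133a-2 on chromosome 2, and Mir1a-2, Mir133a-1 and Mir1b on chromosome 18 of the mouse. They were chosen by gene name in GENCODE M21, as the 3 clusters that pair a Mir1-type gene with a Mir133 gene, and all 7 were found among the 2202 microRNA genes of the deposited tables. Small RNA under 30 bases was sequenced from gastrocnemius, the large calf muscle. The mice were adult males of 8 to 10 months, with 5xFAD/CAST given as their strain. 5xFAD is a transgenic line that models amyloid deposition in the brain, CAST is a wild-derived inbred strain, and whether these animals had the transgene is not stated. The 2 libraries, replicates 1 and 2 of this 1 group, share a donor record, and nothing says that they came from separate animals. A p-value for a difference between replicates 1 and 2 therefore compares 2 libraries, whose spread may be technical, and a p-value for a difference between genes or clusters is from the reads within 1 library. No comparison between conditions was possible.

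As background, miR-1, miR-133 and miR-206 are called myomiRs because striated muscle makes them in large amounts. Each cluster is transcribed as a precursor that carries a Mir1-type hairpin and a Mir133 hairpin. The clusters on chromosomes 2 and 18 are active in heart and skeletal muscle, whereas the cluster of Mir206 and Mir133b is known from skeletal muscle. miR-1 and miR-206 favour differentiation of muscle precursor cells and have nearly the same targets, since they share a seed, the stretch that pairs with target transcripts. miR-133 is known to keep myoblasts dividing through its target Srf.

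The sequences show which of these microRNAs a short read can tell apart, which bears on what the tables could count. Each arm is written 5′ to 3′ with its seed, bases 2 to 8, in capitals, as RefSeq gives it for GRCm38.p6. Both arms of Mir206 and Mir133b are shown because they make up the chromosome 1 cluster, and the 5p arm of Mir1a-1 because it resembles the 5p arm of Mir206.
miR-206-3p: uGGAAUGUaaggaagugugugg
miR-206-5p: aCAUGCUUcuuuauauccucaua
miR-1a-1-5p: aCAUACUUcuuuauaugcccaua
miR-133b-3p: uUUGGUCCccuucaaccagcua
miR-133b-5p: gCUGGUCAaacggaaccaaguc
The 5p arms of Mir206 and Mir1a-1 are 23 bases long and identical at 20 positions. Counted from 1 at the 5′ end, with the base of miR-206-5p first, they differ by G5A, C17G and U19C, of which G5A lies in the seed. Among the 1738 mature arms listed in the RefSeq table used here, miR-206-3p shared its seed with miR-6349 and miR-6382, and the other 4 arms shared theirs with none of those listed. The miR-1a-3p, miR-1b and miR-133a arms were not compared here, so these counts leave out the miR-1 and miR-133a relatives.

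The chromosome 1 hairpins are printed whole, with the 3p arm in capitals, to place these arms in their precursors.
Mir206 hairpin: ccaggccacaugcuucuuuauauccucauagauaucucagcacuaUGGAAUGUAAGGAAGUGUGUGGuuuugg
Mir133b hairpin: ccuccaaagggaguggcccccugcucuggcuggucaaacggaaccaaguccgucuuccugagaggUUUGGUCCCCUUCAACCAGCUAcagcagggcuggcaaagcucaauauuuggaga
Mir206 (ENSMUSG00000065559.1) is at chr1:20679010-20679082 and Mir133b (ENSMUSG00000065480.1) at chr1:20682769-20682887 of mm10, both on the plus strand, with 3686 bases between them. Both lie in exons of the lincRNA Gm28653.

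Mir1a-1 (ENSMUSG00000070144.1) is at chr2:180389048-180389124 and Mir133a-2 (ENSMUSG00000065460.1) at chr2:180398379-180398482, both on the plus strand, 9254 bases apart, and no other annotated gene overlaps them. Mir1a-2 (ENSMUSG00000106348.1), at chr18:10785481-10785552, and Mir133a-1 (ENSMUSG00000065399.2), at chr18:10782909-10782976, are on the minus strand with 2504 bases between them. They lie in introns of Mir133a-1hg, their host RNA, and opposite an intron of Mib1, which encodes a ubiquitin ligase of Notch signalling. Mir1b (ENSMUSG00000080662.1), at chr18:10785446-10785567 on the plus strand, covers Mir1a-2 from the opposite strand.

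To find which reads of each locus could be counted, every window of 22 bases, the length of a typical mature microRNA, was searched on both strands. The search covered annotated transcripts of genes that do not overlap the locus. Here and below, a window found nowhere else, or in no other gene, is meant within this search. All 52 windows of Mir206 and all 98 of Mir133b were found in no other gene. Of Mir1a-1, 49 of 56 windows were found nowhere else, of Mir1a-2 44 of 51, of Mir1b 94 of 101, of Mir133a-2 70 of 83 and of Mir133a-1 34 of 47. Thus 5 of the 7 loci held a shared window, against 51.6% of all 2202 microRNA genes, so that sharing as such was common.

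The shared stretches fell on particular parts of the hairpins. Mir1a-1 and Mir1a-2 had a run of 28 bases in common, at bases 45 to 72 of the 77-base hairpin of Mir1a-1 and 43 to 70 of the 72-base hairpin of Mir1a-2. The 5p arm of Mir1a-1, at bases 10 to 32, lay outside this run and no part of it from its 5′ end, from 16 bases on, was found in another gene. Mir133a-1 and Mir133a-2 had 2 runs in common, of 24 and 31 bases, which took up bases 5 to 28 and 38 to 68 of the 68-base hairpin of Mir133a-1. The 2 genes of each such pair stand on different chromosomes, so a read from within these runs fits both places.

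**Figure D1:**
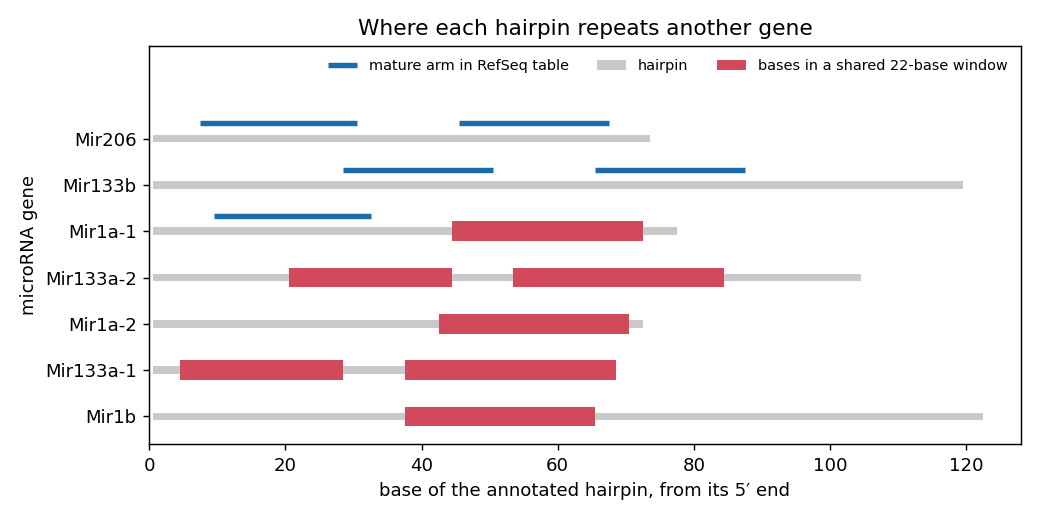
Annotated hairpin of each gene (grey, in bases from its 5′ end), with the mature arms held by the RefSeq table (blue). Red marks bases in a 22-base window also found in another gene that does not overlap the locus. Mir206 and Mir133b have no red part, Mir1a-1, Mir1a-2 and Mir1b have 1 stretch of 28 bases, and Mir133a-1 and Mir133a-2 have 2 stretches of 24 and 31 bases.

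For a read that starts at base 1 of miR-133b-3p, whether it fits Mir133b alone depends on a single base. Bases 1 to 21 of miR-133b-3p, printed above, lie in a run of 21 bases also present in the Mir133a-1 and Mir133a-2 hairpins, and only with base 22 did the arm become particular to Mir133b. A read of this arm that stopped at 21 bases or fewer therefore matched 3 loci. miR-206-3p also overlaps its relatives, through a run of 13 bases shared with Mir1a-1 and Mir1a-2 that takes in its bases 1 to 10 and so the whole seed. From 16 bases on, no stretch from the 5′ end of either arm of Mir206, or of miR-133b-5p, was found in another gene. At 20 bases, 6 of 7 loci held a shared window, Mir133b now among them with 2 of 100 windows. At 18 bases all 7 did, with 1 of 56 windows of Mir206.

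The tables hold read counts on the strand of the gene, and CPM scales them to 1000000 in each library. Replicate 1 had 1157420 such reads out of 6119818 and replicate 2 had 1193393 out of 6632802. Reads aligned to several places, 3681109 in replicate 1 and 4191519 in replicate 2, were counted in no gene, and how many came from these loci cannot be read from the tables. Where no read was counted, a level of up to 3 counts was taken as still possible, which is 2.59 CPM in replicate 1 or 2.51 CPM in replicate 2. The exact interval is wider and ends at 3.09 CPM for the 0 reads of Mir133a-2 in replicate 2. Intervals are exact Clopper-Pearson 95% intervals, and like these limits they hold counting error alone, because reads copied by PCR and not tagged per molecule are not independent. As a check of the tissue that uses none of the 7 loci, the muscle microRNAs Mir486, Mir499 and Mir208b all met the detection limit used here, 2 CPM in each of the libraries. Mir122 of liver had 12 and 13 reads, or 10.4 and 10.9 CPM, and met the limit too. So did every heart, endothelium, smooth muscle, leukocyte and erythroid gene listed, so meeting this limit does not set muscle apart. The 8 nervous tissue genes listed summed to 76 and 40 reads, with 2 detected (Mir138-1 and Mir138-2) and 5 at 0 (Mir124a-1, Mir124a-2, Mir124a-3, Mir9-2 and Mir9-3); where such genes have copies, reads that match several of them would not have been counted.

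Mir206 was the myomiR that the counts show in quantity. It had 38135 reads in replicate 1 and 39300 in replicate 2, or 32948 CPM (interval 32624 to 33275) and 32931 CPM (32612 to 33253), with a mean of 32940 ± 12.0 CPM (SD, n = 2). This SD is smaller than the counting error of either library and holds for scaling by total counts only. With the TMM scaling used further below, Mir206 was 1.24-fold higher in replicate 2. It ranked 10 of 2202 genes in each library by counted reads. These counts leave out reads aligned to several places, and how many each locus lost was not tested. Windows of 22 bases also found in another gene were held by the Mir1a and Mir133a loci, but not by Mir206. In tissue, a lower count cannot distinguish fewer muscle cells from less RNA per cell. Of its neighbours in mean level, Mirlet7b stood above it in both libraries at 46887 and 33594 CPM and Mir23b below it at 26504 and 30672 CPM. The libraries of Mirlet7d, at 47344 and 19736 CPM, and of Mir23a, at 26609 and 35940 CPM, lay on either side of Mir206, so the order of these 3 genes is not settled.

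Its partner Mir133b had 27 and 10 reads in replicates 1 and 2, which is 23.3 CPM (15.4 to 33.9) and 8.38 CPM (4.02 to 15.4). Both libraries were far below Mir206, and replicate 1 was the higher. Reads of Mir206 per read of Mir133b numbered 1412 (971 to 2144) in replicate 1 and 3930 (2137 to 8196) in replicate 2. The ratio differed between the libraries by Fisher's exact test (two-sided, adjusted p = 0.011 over the 3 clusters), which compares libraries and covers counting error only.

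On chromosome 2, Mir1a-1 had 14 and 9 reads, or 12.1 CPM (6.61 to 20.3) and 7.54 CPM (3.45 to 14.3). Mir133a-2 had 5 reads in replicate 1, or 4.32 CPM (1.40 to 10.1), and none in replicate 2. Mir1a-1 thus had the larger count in both libraries, by 2.80-fold in replicate 1, with an exact interval from 0.953 to 9.93 that includes equality. In replicate 2 the interval started at 1.97 and had no upper end. The change of the ratio between the libraries did not pass (Fisher's exact test, two-sided, adjusted p = 0.14).

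On chromosome 18, Mir1a-2 had 60 and 54 reads, or 51.8 CPM (39.6 to 66.7) and 45.2 CPM (34.0 to 59.0), the most of the Mir1 and Mir133 loci. Mir133a-1 had 24 and 6 reads, or 20.7 CPM (13.3 to 30.9) and 5.03 CPM (1.85 to 10.9). Mir1a-2 exceeded its partner by 2.50-fold (1.53 to 4.20) in replicate 1 and 9.0-fold (3.88 to 25.6) in replicate 2, and the ratio differed between the libraries (Fisher's exact test, two-sided, adjusted p = 0.011). In each of the 3 clusters the Mir133 gene had fewer reads than its partner in both libraries, and it had a lower share of the cluster's reads in replicate 2 than in replicate 1, a difference that passed the test on chromosomes 1 and 18 only.

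**Figure D2:**
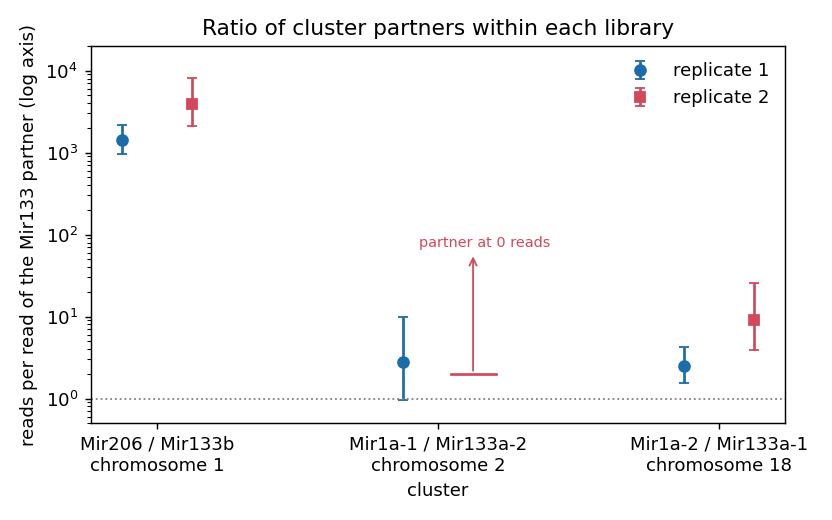
Reads of the Mir206 or Mir1a gene per read of its Mir133 partner (log axis) in each cluster, with 1 point per library and exact 95% intervals for counting error. The chromosome 1 ratios are 1412 and 3930 and those of the other clusters 2.50 to 9.0; the arrow starts at 1.97, the lower end of the interval where Mir133a-2 had 0 reads.

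The chromosome 1 cluster was set apart from the others. Its partner ratio differed from that of chromosome 18 in replicate 1 (Fisher's exact test, two-sided, adjusted p = 5.5e-51 over 6 tests) and in replicate 2 (adjusted p = 2.3e-13), and from that of chromosome 2 in replicate 1 (adjusted p = 6.9e-12). In replicate 2, where chromosome 2 had 9 reads and 0 reads, the same test could not separate them (Fisher's exact adjusted p = 1.0). The chromosome 2 and chromosome 18 ratios did not differ by this test in either library (adjusted p = 1.0 in both), on intervals as wide as those above. Mir206 is also the gene whose windows were found nowhere else at 20 bases or more, while every other gene of the 3 clusters shares a run of at least 21 bases with a gene of another cluster; the part of lost reads in these ratios was not tested.

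Mir1b is annotated on the opposite strand of Mir1a-2, and the 3 count columns show how the pair was counted. Mir1b had 1 read in each library on its own strand, or 0.864 CPM (0.0219 to 4.81) and 0.838 CPM (0.0212 to 4.67), which is below the limit that a count of 0 allows. Its opposite-strand column held 60 and 54 reads, the same numbers that Mir1a-2 has on its strand, and the opposite-strand column of Mir1a-2 held 1 and 1. In the column that ignores strand, both genes stood at 0 in both libraries. The other 5 loci had 0 reads on the opposite strand in both libraries, so their counts were the same with and without strand.

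By mean CPM the order was Mir206, Mir1a-2, Mir133b, Mir133a-1, Mir1a-1, Mir133a-2 and Mir1b. This is an order of counted reads, which leave out those aligned to several places. At 22 bases, Mir206 and Mir133b held no shared window and the other 5 loci did. The part of lost reads in this order and in the fold values below was not tested. Counts were not divided by hairpin length for this order, on the assumption that a read comes from a mature microRNA. The counts hold no read lengths or positions to check this. Per 100 hairpin bases, levels ran from 45123 CPM for Mir206 to 0.698 CPM for Mir1b. Mir133a-1 at 18.9 CPM passed Mir133b at 13.3 CPM, and the other 5 kept their places. Neighbours were compared within each library by a two-sided exact binomial test, with adjustment over 12 tests. Mir206 stood above Mir1a-2, by 636-fold (494 to 833) in replicate 1 and 728-fold (558 to 969) in replicate 2, and Mir1a-2 above Mir133b (exact binomial adjusted p = 0.0016 and 8.0e-08). Mir133b, Mir133a-1 and Mir1a-1 could not be ordered: neighbours among them overlapped between libraries and no test passed (exact binomial adjusted p from 0.25 to 0.85). Mir1a-1 exceeded Mir133a-2 in replicate 2 (exact binomial adjusted p = 0.0094) but not beyond counting error in replicate 1 (exact binomial adjusted p = 0.13), and Mir133a-2 and Mir1b were not distinguishable.

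**Figure D3:**
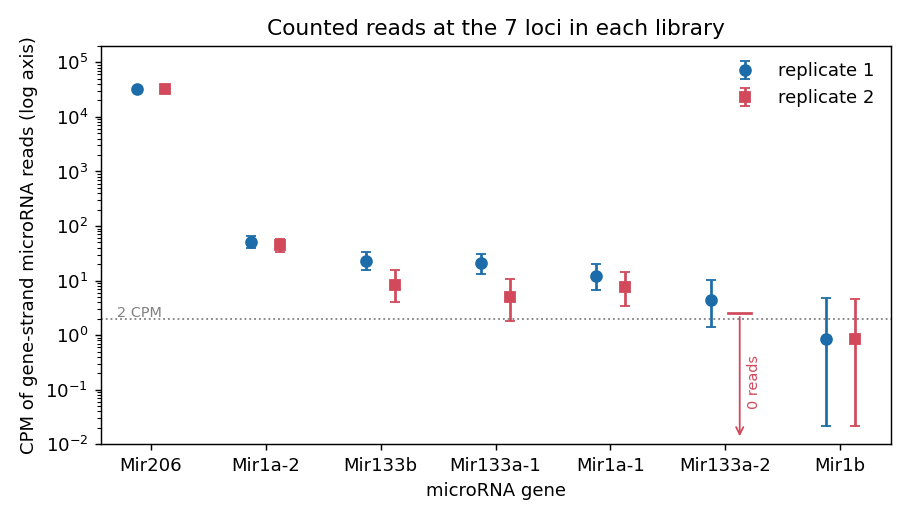
CPM (log axis) of the 7 genes in each library, in the order of their means, with exact 95% intervals for counting error; the dotted line is the detection limit of 2 CPM and the arrow marks a count of 0 with the limit of 2.51 CPM given above. Mir206 stands at 32948 and 32931 CPM, and the other 6 genes at 51.8 CPM or less.

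Detection was thus met by 5 of the 7 genes, against 14.6% of all 2202 genes; Mir133a-2 and Mir1b were the exceptions. All 7 loci together held 3.31% and 3.30% of the counted reads, of which the 6 loci other than Mir206 held 131 and 80 reads. Against each read of those 6 loci there were 28100 reads aligned to several places in replicate 1 and 52394 in replicate 2. By type, Mir1a-1 and Mir1a-2 summed to 74 and 63 reads in replicates 1 and 2, and the 3 Mir133 loci to 56 and 16.

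The difference between the 2 libraries was tested for each gene, at TMM effective library sizes, with a two-sided exact binomial test adjusted over all 321 detected genes. This test called 37.4% of all genes, 18.7% in each direction, and 2 of the 5 detected loci, which is near that share. Mir133a-1, with 24 and 6 reads, was lower in replicate 2, by a log2 ratio of -1.58 (exact binomial adjusted p = 0.015). The log2 ratios carry a pseudocount of 1 CPM; without it, the level in replicate 1 was 3.33-fold that in replicate 2 (1.33 to 9.97). Mir206 was 1.24-fold higher in replicate 2 (1.22 to 1.25) with TMM, but had a ratio of 0.999 (0.985 to 1.01) with total counts only, a scaling that moved the median log2 ratio of all genes from -0.01 to -0.30. When a dispersion of 0.01 was allowed between the libraries in edgeR's exact test, neither passed (adjusted p = 0.41 for Mir206 and 0.068 for Mir133a-1), and this test called 16.5% of all genes. Dispersion is the square of the coefficient of variation, which was 33.8% between these libraries. The 0.01 is thus below the estimated spread, and this test does not allow for all of it. With total counts only, the binomial test called 35 genes higher and 114 lower in replicate 2, against 60 and 60 with TMM.

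Mir133b fell short of the threshold at a log2 ratio of -1.09 (exact binomial adjusted p = 0.079), with a level in replicate 1 that was 2.25-fold that in replicate 2 without the pseudocount (1.06 to 5.21), and passed once total counts set the scale (exact binomial adjusted p = 0.012). Mir1a-1 had a log2 ratio of -0.34 (exact binomial adjusted p = 0.82). Mir1a-2 had one of 0.11 with TMM (exact binomial adjusted p = 0.84) and -0.19 with total counts (exact binomial adjusted p = 0.69), and its 1.08-fold ratio had an interval of 0.733 to 1.59. For Mir133a-2, with 5 reads and 0, the ratio of replicate 2 over replicate 1 was between 0 and 1.31. The common coefficient of variation between the libraries was 33.8% by edgeR. Some markers of other cell types differed between the libraries too. On the same TMM scale, endothelial Mir126a had a log2 ratio of 1.08, and of the smooth muscle genes Mir143 had 0.05 and Mir145a -0.41, all past the test. Of the leukocyte genes, Mir150 passed at -0.39, while Mir223 at -0.38 and Mir142 at 0.47 did not. Erythroid Mir144 passed at 2.95, while Mir451a of the same list did not at -0.36. Among the detected nervous tissue genes, Mir138-2 passed at -1.21 and Mir138-1 did not at -0.33. Mir122 of liver did not pass at 0.35. In CPM over total counts, the sums in replicates 1 and 2 were 80768 and 137673 for endothelium, 50799 and 42140 for smooth muscle, and 1484 and 948 for leukocytes, so the smooth muscle sum, which is mostly Mir143, was lower in replicate 2 on that scale, whereas Mir143 was slightly higher with TMM. Their part in the ratios of the 7 loci was not tested.

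**Figure D4:**
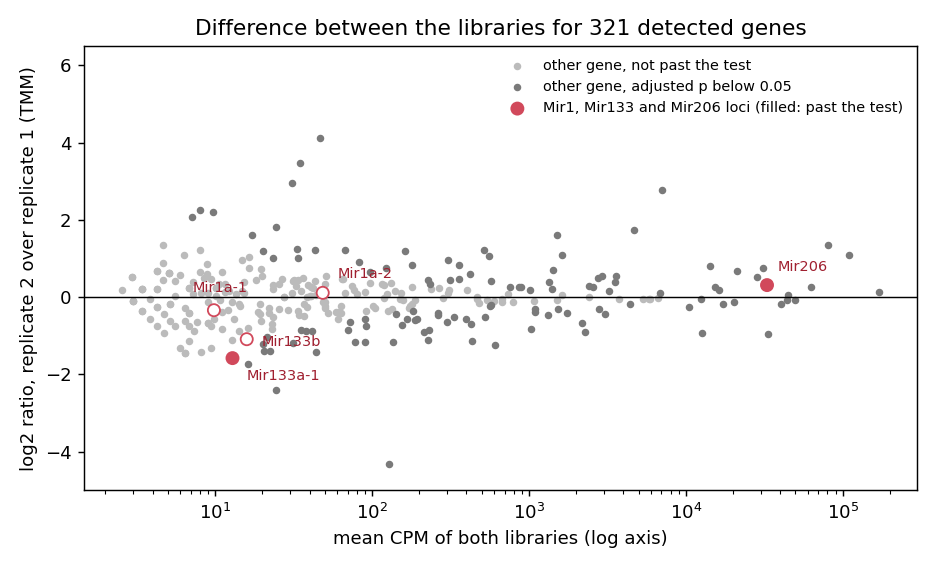
Log2 ratio of replicate 2 over replicate 1 (TMM) against mean CPM (log axis), with 1 point per detected gene; the 5 detected loci are in red, filled where the exact binomial test passed. Mir206 lies at 0.31 and Mir133a-1 at -1.58, both within the range of the other genes.

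As a comparison, the other muscle microRNAs listed for this work were all detected. Mir486, made from an intron of the ankyrin gene Ank1, had 5152 and 3706 CPM, and Mir3107, its opposite-strand neighbour, 115 and 41.1 CPM. The microRNAs carried by myosin genes were lower than Mir206 as well: Mir499 had 381 and 465 CPM, Mir208b 104 and 142 CPM, and the cardiac Mir208a 11.2 and 18.4 CPM. By the exact binomial test, 2 of these 5 were higher in replicate 2 (Mir499 and Mir208b), 2 were lower (Mir486 and Mir3107) and 1 did not pass (Mir208a). Over all 321 genes, 37.4% passed. The log2 ratios of the 5 ran from -1.16 to 0.95, so they had no common direction. Their median was 0.59, against -0.01 over all genes. In log2 ratio, the genes closest to Mir206 among 127 others at 100 CPM or more were Mir700 at 0.32, Mir10a at 0.28 and Mir152 at 0.27, a likeness over 2 libraries that 16 genes had to within 0.1.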

How the data were processed

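The authors deposited, for each of the 2 libraries, a table of raw read counts in whole numbers, with 1 line per microRNA gene and 3 unnamed columns for both strands, the gene's own strand and its opposite. Genome build mm10 and annotation GENCODE M21 are named in the text files deposited with them; the aligner and its settings are not given there or in the labels. The 4 leading lines hold totals of uncounted reads and entered no library size or test.

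CPM was computed over the gene-strand counts. Ratios used TMM factors of 1.11 and 0.899 (edgeR 4.0.16, R 4.3.3), a pseudocount of 1 CPM for log2 values, and Benjamini-Hochberg adjustment at 0.05 over genes at 2 CPM or more in both libraries. Of these steps, only the binomial test with its adjustment and the ratio intervals were tried on simulated counts. Those counts held counting error alone, so the trial does not cover the further spread between these libraries. Hairpin windows were searched in the GENCODE M21 transcripts, leaving out genes that overlap the locus, in place of the genome planned; places outside annotated transcripts were therefore not searched, and CAST differences from the reference were not considered. DESeq2 1.42.0 size factors were an alternative. Python 3.11.15 with scipy 1.17.1 did the rest.

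The genes named were the 7 loci, 5 other muscle microRNAs, the 2 genes above and the 2 below Mir206 in mean CPM, the 3 nearest to it in log2 ratio at 100 CPM or more, and markers of other cell types. The loci and lists were chosen with earlier results of these data known.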

Additional observations from a re-analysis of the deposited data

How the results depend on the processing

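No paired analysis was possible because the series has 1 group of 2 libraries. Leaving out a replicate gave a Mir206 to Mir133b ratio of 1412 to 3930, against 2093 over both, and a Mir1a-2 to Mir133a-1 ratio of 2.50 to 9.0, against 3.80; the Mir1a-1 ratio gave no value without replicate 1, where Mir133a-2 had 0 reads. The summed share of 3.30% became 4.70% with the both-strand column, 3.98% without Mir378a in the denominator and 0.609% over all reads. The both-strand column set Mir1a-2 to 0 reads and so its ratio to Mir133a-1 to 0. Detection at 10 CPM kept 2 of 5 loci, Mir206 and Mir1a-2, and this filter left 1 of them past the replicate test. At a dispersion of 0.01, below the estimated spread, the edgeR exact test called 53 genes in place of 120. It called 0 of the loci, with 2, Mir133b and Mir133a-1, at an unadjusted p under 0.05. With total counts only, the log2 ratio was -0.00074 for Mir206 and -0.19 for Mir1a-2. The read depth of the Mir1 and Mir133 loci limits every statement on them.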

Other observations

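The mirrored counts of Mir1b and Mir1a-2 recur over the tables. Of 2202 microRNA genes, 64 have a microRNA gene facing them on the other strand. For 62 of these the opposite-strand count equalled the partner's own count in both libraries, with pairs where both counts were 0 included. In at least 1 library, 34 genes had reads on their strand and 0 in the both-strand column, and all 34 were among those that overlap. Of the 1137 genes with a 22-base window in another gene, 68 were detected, or 5.98%, against 253 of the 1065 others, or 23.8%. Among the detected genes the median level was 46.0 CPM with and 48.6 CPM without such a window. These are descriptions over all genes of 2 libraries and were not tested.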
